A study of Sus scrofa with 7 samples.

Results

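Visceral endoderm, which surrounds the embryo and is 1 of the lineages of extra-embryonic endoderm beside parietal endoderm, feeds the early embryo by taking up maternal proteins, lipids, vitamins and iron through receptors on its apical surface. The 9 genes described here encode uptake receptors, a membrane anchor for 1 of them, a chaperone and an adaptor. They are LRP2, CUBN, AMN, DAB2, LRP1, LRPAP1, FCGRT, TFRC and STAB1. These genes were taken by gene symbol from the 29510 genes listed in each table, and 6 of the 9 symbols were found, each on 1 row. The symbols LRP1, LRP2 and LRPAP1 were not among the listed symbols. Rows for these 3 genes were instead identified from their gene identifier or their description, a choice made after the symbols had been looked up, and their values are given beside those of the other 6.

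RNA-seq libraries came from 7 porcine cell lines, 1 library per line. The 3 pXEN lines, at passages 26, 26 and 23, are extra-embryonic endoderm cells grown from the inner cell mass of parthenogenetic blastocysts. They were kept on inactivated mouse embryonic fibroblasts in a medium with fetal bovine serum and serum replacement. It also held LIF, CHIR99021, (S)-(+)-dimethindene maleate, minocycline hydrochloride and Y27632. The 2 nESC lines, at passages 21 and 22, are naïve-like embryonic stem cells, kept on mouse embryonic fibroblasts. Their medium combined serum replacement medium and N2B27 medium with FGF, LIF, PD0325901, CHIR99021, SB431542 and doxycycline. The 2 pESC lines, both at passage 20, are primed embryonic stem cells that had been converted from naïve-like cells. They were kept on STO fibroblasts with activin A, bFGF, EGF and LIF. Their medium held serum replacement and an insulin, transferrin and selenium supplement. Serum is named for the pXEN medium alone. Medium and cell type change together between the groups, as does the feeder between pESC and the others, and cannot be told apart. All lines grew on mouse feeders, and these are bulk libraries, so that fewer cells of a type and less RNA per cell cannot be told apart either.

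Library totals ran from 10408164 to 12995720 counted reads, at which depth 3 counts, taken as the floor of detection, correspond to 0.231 to 0.288 CPM (counts scaled to a fixed library total, counting error only). Levels below are FPKM, the count scaled by gene length and by a library size that the authors set, so that genes can be compared per length. These sizes, worked back from the tables, ran from 9856451 to 13488968 and lay below the counted total in each pXEN library and above it in each ESC library. Of 7 extra-embryonic endoderm markers, 6 were above 3 counts in each pXEN library, and SOX7 was at or below 3 counts in every library. The 8 visceral endoderm markers found summed to 9077 to 10171 CPM in the pXEN lines, 4.26 to 4.59 CPM in the nESC lines and 58.6 to 74.3 CPM in the pESC lines. APOE gave most of this sum in the pXEN and pESC lines, and RBP4 had 1 to 6 counts in the pXEN libraries and 20 in nESC line 1. The parietal endoderm markers were as high in the pXEN lines, at 11260 to 12889 CPM, so the visceral label is not set apart from a parietal one by these sums. COL4A1 and COL4A2 gave most of the parietal sum, while THBD had 0, 10 and 2 counts in the pXEN lines against 282 and 360 in the pESC lines. pXEN line 2 stood apart, with 480 CPM over 9 fibroblast markers against 10.3 and 27.7 CPM in pXEN lines 1 and 3, and with 4037 counts of AFP against 60 and 37. The fibroblast sum was 48.3 and 50.1 CPM in the nESC lines and 129 and 199 CPM in the pESC lines. The 6 pluripotent cell markers summed to 11.0 to 19.2 CPM in the pXEN lines. Their sum was 144 and 180 CPM in the nESC lines and 366 and 369 CPM in the pESC lines. SOX2 gave most of it in the nESC lines, and SOX2 with UTF1 in the pESC lines. NANOG and DPPA5 were highest in the pXEN lines. NANOG had 177, 60 and 166 counts there, 0 and 2 in the nESC lines and 21 and 22 in the pESC lines. POU5F1 had 0 to 5 counts in every library.

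Protein uptake in this tissue rests on a receptor complex. Megalin (LRP2), a very large member of the LDL receptor family, and cubilin (CUBN), which has no membrane-spanning part of its own, bind a wide range of filtered or secreted proteins. Amnionless (AMN) anchors cubilin in the membrane and is needed for its transport to the cell surface. DAB2 is the clathrin adaptor that binds the tails of megalin and of other LDL receptor family members.

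Cubilin RNA was at the limit of detection, whereas its partner amnionless was read in every pXEN line and in no ESC line. CUBN (10:47746354-47995946 in Sscrofa10.2, minus strand) had 0, 1 and 0 counts in pXEN lines 1 to 3, 1 and 0 in the nESC lines, and 4 and 0 in the pESC lines. These 6 counts over 7 libraries lay under the filter on low counts, so CUBN was not tested. The level that 3 counts would give is 0.0313 to 0.0428 FPKM, depending on the library. A second row described as cubilin, without a symbol, held 2 counts in all.

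AMN (7:128896529-128904678, minus strand) had 78, 161 and 84 counts in the pXEN lines, or 7.02, 12.4 and 6.77 FPKM, and 0 counts in each of the 4 ESC lines. The mean was 8.73 ± 3.18 FPKM (SD, n = 3), with pXEN line 2 1.83 times above the lowest. Against the floor of 3 counts per library, AMN was at least 39.0-fold higher in pXEN than in nESC and at least 43.1-fold higher than in pESC. The adjusted p values were 0.000319 and 0.000387 in edgeR's quasi-likelihood test, adjusted by Benjamini-Hochberg over 17447 genes, as for all tests that follow. AMN passed the low-count filter through the pXEN libraries alone, so a difference was built into its being tested.

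For LRP2, the tables held a row of 768 bases of exon (15:84748762-84759997, minus strand) that the annotation describes as LRP2, which is a small piece of a very long messenger RNA. It stood at 60.8, 62.2 and 46.9 FPKM in the pXEN lines, at 2.90 and 8.35 in the nESC lines and at 10.8 and 10.4 in the pESC lines. All 3 pXEN lines were above all 4 ESC lines. The row was higher in pXEN than in nESC (log2 fold change 3.33, SE 0.39, adjusted p = 0.000234) and 5.36-fold higher than in pESC (log2 fold change 2.42, SE 0.37, adjusted p = 0.00106). The size of the difference from nESC depends on the nESC lines, at 2.74 on the log2 scale without line 1 and 4.28 without line 2. Between pESC and nESC the log2 fold change was 0.91 (SE 0.41, adjusted p = 0.129). nESC line 2 was 2.88 times above nESC line 1. Without nESC line 2 this log2 fold change was 1.86 (adjusted p = 0.00755), and without nESC line 1 it was 0.33.

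An unannotated transcript on the same strand, with an LDL receptor class B repeat in its description, lies next to this row (15:84686619-84705483). It is not assigned to LRP2 by the tables. Its levels were 29.1, 27.9 and 17.5 FPKM in the pXEN lines, 0.497 and 2.39 in the nESC lines and 5.12 and 2.80 in the pESC lines, which is 0.171 to 0.479 of the LRP2 row in the same library. Over the 7 libraries its log2 CPM ran with that of the LRP2 row (Pearson r = 0.989, a description). It too was higher in pXEN than in nESC (log2 fold change 4.10, adjusted p = 0.000628) and than in pESC (2.66, adjusted p = 0.00375), with 3.36 without nESC line 1 and 5.63 without nESC line 2 in the first of these. The level per length thus differed by more than 2-fold between the 2 rows in every library, and in both rows all pXEN lines lay above all ESC lines.

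DAB2 (16:25736189-25907473, minus strand) separated all 3 cell types. It had 1052, 1385 and 775 counts in the pXEN lines, 18 and 20 in the nESC lines and 238 and 287 in the pESC lines. The levels were 39.4 ± 10.3 FPKM (SD, n = 3), 0.635 ± 0.0640 (SD, n = 2) and 7.98 ± 0.684 (SD, n = 2). No 2 groups overlapped. DAB2 was 61.6-fold higher in pXEN than in nESC (log2 fold change 5.94, SE 0.32, adjusted p = 4.36e-06) and 4.97-fold higher than in pESC (2.31, SE 0.24, adjusted p = 0.000163). It was also 12.4-fold higher in pESC than in nESC (3.63, SE 0.32, adjusted p = 0.000168). Chromosome 16, on which DAB2 lies, moved the other way as a whole. The median over its 298 tested genes was -0.73 in pXEN against nESC and -0.50 in pESC against nESC, as log2 fold changes. Scaled within its own chromosome, DAB2 stood at 6.52 and 4.17 in these comparisons.

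Relative to the LRP2 row, DAB2 was at 0.598 to 0.769 of its FPKM in the pXEN lines and at 0.692 and 0.812 in the pESC lines. In the nESC lines the ratio was 0.204 and 0.0815. The pXEN and pESC ratios overlapped and the nESC ratios lay below both.

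**Figure D1:**
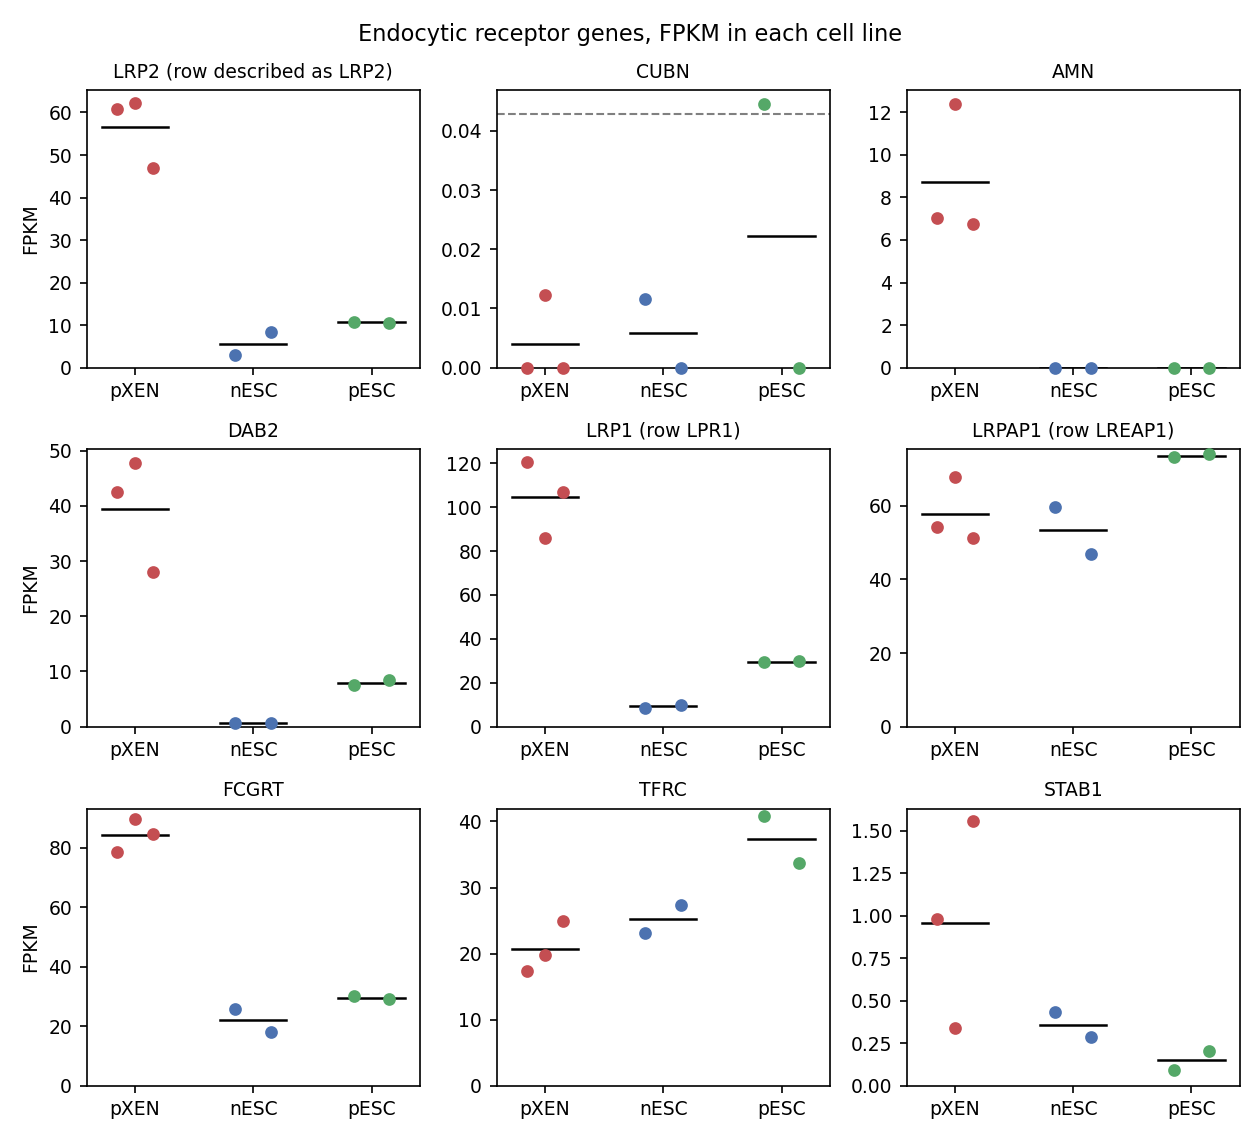
FPKM of each gene (vertical axis, linear, own scale per panel) in the 3 pXEN, 2 nESC and 2 pESC lines. Points are lines, black bars are group means, and the dashed line for CUBN marks 0.0428 FPKM, the highest level that 3 counts stand for in a library. AMN was at 0 in all ESC lines, the LRP2 row, DAB2, LRP1 and FCGRT lay highest in all pXEN lines, and TFRC and LRPAP1 lay highest in the pESC lines.

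LRP1 is the widely expressed large receptor of the LDL receptor family, which clears proteases, their inhibitors and lipoprotein remnants. LRPAP1 is the chaperone that keeps LRP1, megalin and their relatives from binding ligands while they fold in the endoplasmic reticulum. Every LRP1 row with counts differed between the cell types, and no call was made for the chaperone in the main test of all lines.

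The main LRP1 row carries the symbol LPR1 (5:24186534-24336347, minus strand). It held 12184, 10145 and 12068 counts in the pXEN lines, 1077 and 1187 in the nESC lines and 3827 and 4114 in the pESC lines. At 120.6, 86.0 and 107 FPKM in the pXEN lines it was among the highest of the 9 genes, against 9.28 ± 0.882 FPKM (SD, n = 2) in the nESC lines and 29.7 ± 0.136 (SD, n = 2) in the pESC lines. The 3 groups did not overlap. LRP1 was 11.2-fold higher in pXEN than in nESC (log2 fold change 3.49, SE 0.17, adjusted p = 3.08e-06), 3.54-fold higher than in pESC (1.82, SE 0.16, adjusted p = 6.37e-05) and 3.17-fold higher in pESC than in nESC (1.66, SE 0.17, adjusted p = 0.000292). The fibroblast markers, at a higher sum in the pESC than in the nESC lines, moved with this last difference and with that of DAB2. COL1A2 and DCN gave most of the pESC sum, while TWIST1 had 91 and 112 counts there against 133 and 149 in the nESC lines. In pXEN lines 1 and 3 the fibroblast sum lay below that of both nESC lines. The part of fibroblasts in these differences was not tested.

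A further 3 rows without a symbol are described as LRP1, and 1 of them held 0 counts in every library. The second row, on the opposite strand and overlapping the main one, stood at 22.3 to 32.6 FPKM in the pXEN lines, 3.04 and 4.17 in the nESC lines and 10.4 and 7.94 in the pESC lines. The third row stood at 15.5 to 17.7, 1.70 and 2.50, and 4.08 and 4.53 FPKM. Both rows were higher in pXEN than in nESC, by 2.94 and 2.98 on the log2 scale (adjusted p = 2.73e-05 and 4.02e-05), and than in pESC, by 1.61 and 1.96 (adjusted p = 0.000561 and 0.000328). How the reads of this gene divide among the rows is therefore uncertain, while in each of the 3 rows with counts the pXEN lines lay highest and the nESC lines lowest. In pESC against nESC the second row differed by 1.33 (adjusted p = 0.00409) and the third by 1.02 (adjusted p = 0.0207). The call of the third row was lost in 4 of 17 alternatives, with adjusted p up to 0.114.

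**Figure D2:**
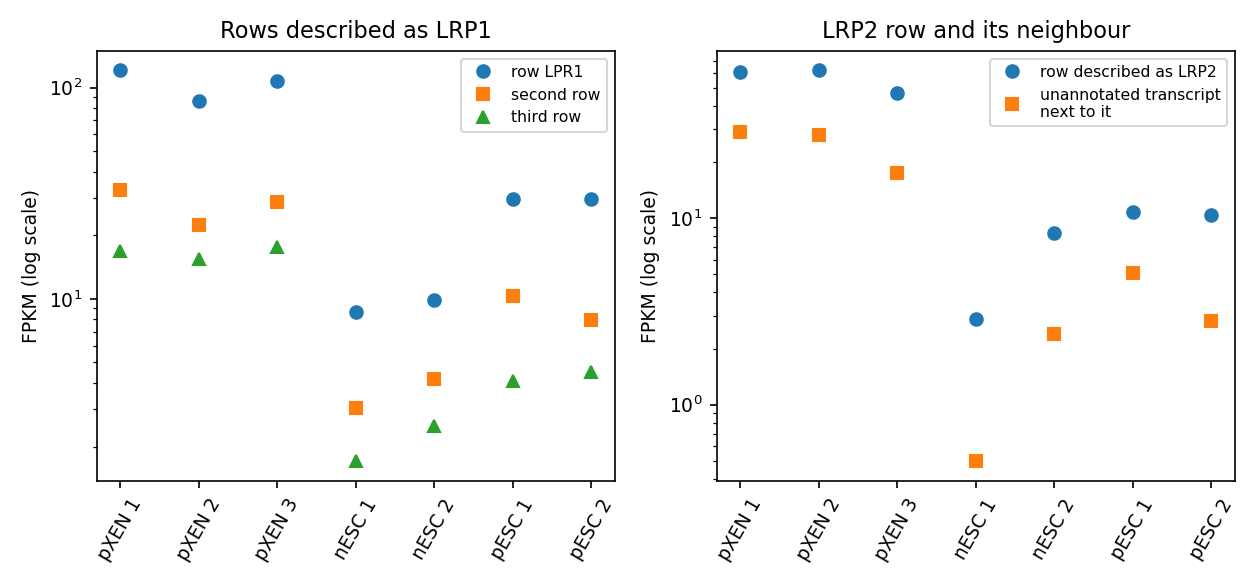
FPKM (log scale) in each of the 7 lines for the 3 rows described as LRP1 that held counts (left) and for the row described as LRP2 with the unannotated transcript next to it (right). In each library the rows kept 1 order of level, and every row was higher in the 3 pXEN lines than in the 4 ESC lines.

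LRPAP1 is listed as LREAP1 (8:1826121-1842703, plus strand), a name that the identifier ties to LRPAP1. It stood at 54.4, 67.7 and 51.2 FPKM in the pXEN lines, 59.8 and 46.8 in the nESC lines and 73.3 and 73.9 in the pESC lines. The pXEN and nESC ranges overlapped, and both pESC lines lay above every other line. The log2 fold changes were 0.11 for pXEN against nESC (SE 0.16, adjusted p = 0.578), -0.34 for pXEN against pESC (SE 0.16, adjusted p = 0.108) and 0.45 for pESC against nESC (SE 0.17, adjusted p = 0.0815). Without pXEN line 2, which had the highest pXEN level, LRPAP1 was lower in pXEN than in pESC (-0.47, adjusted p = 0.00933) and higher in pESC than in nESC (adjusted p = 0.0147). Upper-quartile scaling of all lines also called it lower in pXEN than in pESC (-0.43, adjusted p = 0.0427). An edgeR fit of only the 2 groups compared called it higher in pESC than in nESC (0.46, adjusted p = 0.0222).

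The ratio of chaperone to receptor RNA followed from these levels. LRPAP1 was at 0.451, 0.787 and 0.478 of the FPKM of the main LRP1 row in the pXEN lines, at 6.90 and 4.73 times it in the nESC lines and at 2.48 times it in both pESC lines. The receptor row exceeded the chaperone in every pXEN line, and the chaperone exceeded the receptor row in every ESC line.

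**Figure D3:**
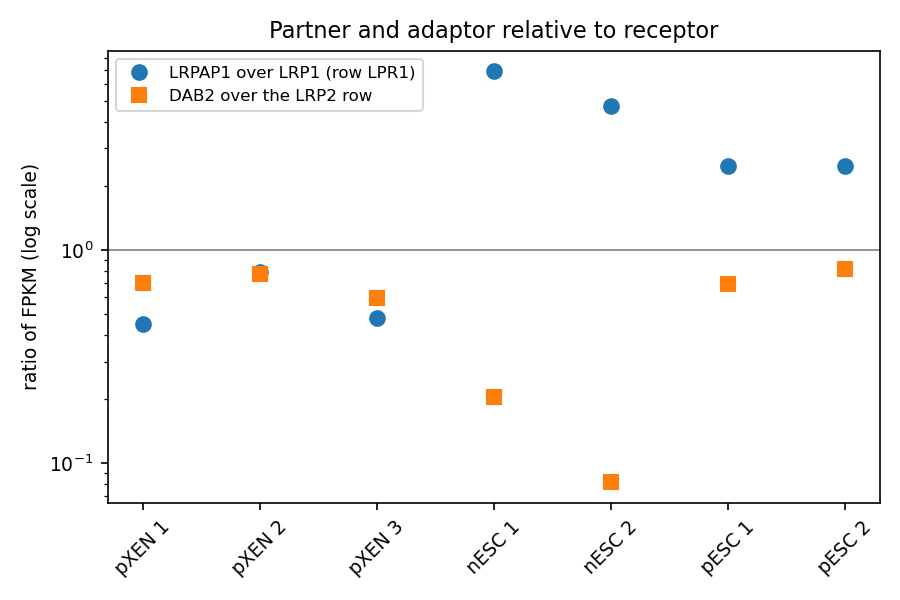
Ratio of FPKM (log scale) in each of the 7 lines, for LRPAP1 over the main LRP1 row (circles) and DAB2 over the LRP2 row (squares), with a grey line at a ratio of 1. LRPAP1 over LRP1 lay below 1 in the 3 pXEN lines and above 1 in the 4 ESC lines, and DAB2 over LRP2 was lowest in the 2 nESC lines.

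FCGRT encodes the heavy chain of the neonatal Fc receptor, which pairs with beta-2 microglobulin (B2M) and protects IgG and albumin from breakdown after uptake. It was higher in the pXEN lines than in either kind of ESC. FCGRT (6:50318835-50328168, plus strand) had 78.6, 89.7 and 84.6 FPKM in the pXEN lines, the closest agreement among the pXEN lines of all 9 genes, with the highest 1.14 times the lowest. The nESC lines had 25.9 and 18.1 FPKM and the pESC lines 30.1 and 29.2. The pXEN lines lay above all ESC lines. FCGRT was 3.81-fold higher in pXEN than in nESC (log2 fold change 1.93, SE 0.17, adjusted p = 4.24e-05) and 2.86-fold higher than in pESC (1.52, SE 0.16, adjusted p = 0.000186). For pESC against nESC the log2 fold change was 0.41 (SE 0.17, adjusted p = 0.104), and 0.69 (adjusted p = 0.0310) without nESC line 1.

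FCGRT lies wholly, over 9334 bases, inside the interval listed for RPL13A, a ribosomal protein gene on the same strand, so reads of the 2 genes could be mixed. RPL13A moved in the opposite direction, by -0.66 on the log2 scale against nESC (adjusted p = 0.00369) and -0.77 against pESC (adjusted p = 0.00209). The row of the partner B2M held few reads, with 0, 17 and 4 counts in the pXEN lines, 95 and 55 in the nESC lines and 49 and 77 in the pESC lines. It was lower in pXEN than in nESC (log2 fold change -3.29, adjusted p = 0.0121) and than in pESC (-2.89, adjusted p = 0.0243).

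TFRC, the transferrin receptor that carries iron into dividing cells, was the only 1 of the 9 genes called lower in pXEN in the main test of all lines. TFRC (13:143408460-143437991, plus strand) stood at 17.4, 19.8 and 24.9 FPKM in the pXEN lines, 23.1 and 27.3 in the nESC lines and 40.8 and 33.8 in the pESC lines. The pXEN lines lay below both pESC lines and overlapped the nESC lines. TFRC was 1.79-fold lower in pXEN than in pESC (log2 fold change -0.84, SE 0.17, adjusted p = 0.00433). Against nESC the log2 fold change was -0.29 (SE 0.17, adjusted p = 0.186), and without pXEN line 3 it was -0.44 (adjusted p = 0.0496). Between pESC and nESC it was 0.55 (SE 0.19, adjusted p = 0.0562), close enough to the threshold that DESeq2 called it (adjusted p = 0.0267).

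STAB1, stabilin-1, is a scavenger receptor of macrophages and sinusoidal endothelium, and its RNA was scarce in all lines. STAB1 (13:37846302-37873056, plus strand) had 81, 33 and 144 counts in the pXEN lines, 44 and 28 in the nESC lines and 10 and 23 in the pESC lines. The levels were 0.977, 0.341 and 1.56 FPKM, then 0.431 and 0.285, then 0.0942 and 0.203. The pXEN lines spread 4.57-fold, the widest of the tested genes. They overlapped the nESC lines and lay above both pESC lines. STAB1 was 6.40-fold higher in pXEN than in pESC (log2 fold change 2.68, SE 0.69, adjusted p = 0.0134). This log2 fold change was 3.32 without pESC line 2. The call was lost without pESC line 1 (2.23) and with limma on log2(FPKM + 1) (adjusted p = 0.0541). It was also lost in edgeR with a replicate block (1.99, adjusted p = 0.0505). Against nESC the log2 fold change was 1.41 (SE 0.63, adjusted p = 0.0934). It was 1.81 (adjusted p = 0.00543) without pXEN line 2, the line with the lowest STAB1. For pESC against nESC it was -1.27 (SE 0.72, adjusted p = 0.220).

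The 6 macrophage markers summed to 0.288 to 3.01 CPM in the pXEN lines, 10.7 and 14.0 CPM in the nESC lines and 6.45 and 10.5 CPM in the pESC lines. The 5 endothelial markers found summed to 3.17 to 4.55 CPM in the pXEN lines, 3.80 and 4.86 in the nESC lines and 81.6 and 90.4 in the pESC lines. AIF1 gave most of the macrophage sum in the ESC lines and TEK most of the endothelial sum in the pESC lines. PTPRC and CD163 had 0 counts in every pXEN line, and CD14 had 3, 15 and 8 there. The part of such cells in the STAB1 values was not tested. STAB1 also overlaps NT5DC2 on the opposite strand by 4539 bases.

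TFRC and STAB1 both lie on chromosome 13, on which the median over 1129 tested genes was 0.46 in pXEN against nESC and 0.40 against pESC, as log2 fold changes. The genes of all other chromosomes had medians of -0.02 and -0.04. The pXEN lines did not share this shift evenly, since their median log2 deviation on chromosome 13 from the pXEN mean was 0.13, -0.26 and 0.14 in lines 1 to 3. Scaled within chromosome 13, TFRC was lower in pXEN than in nESC (-0.71, adjusted p = 0.0134) as well as than in pESC (-1.20, adjusted p = 0.00126). STAB1 stood at 0.89 (adjusted p = 0.202) against nESC and at 2.23 (adjusted p = 0.0157) against pESC under that scaling. The part of the chromosome in the values of these 2 genes was not tested further.

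**Figure D4:**
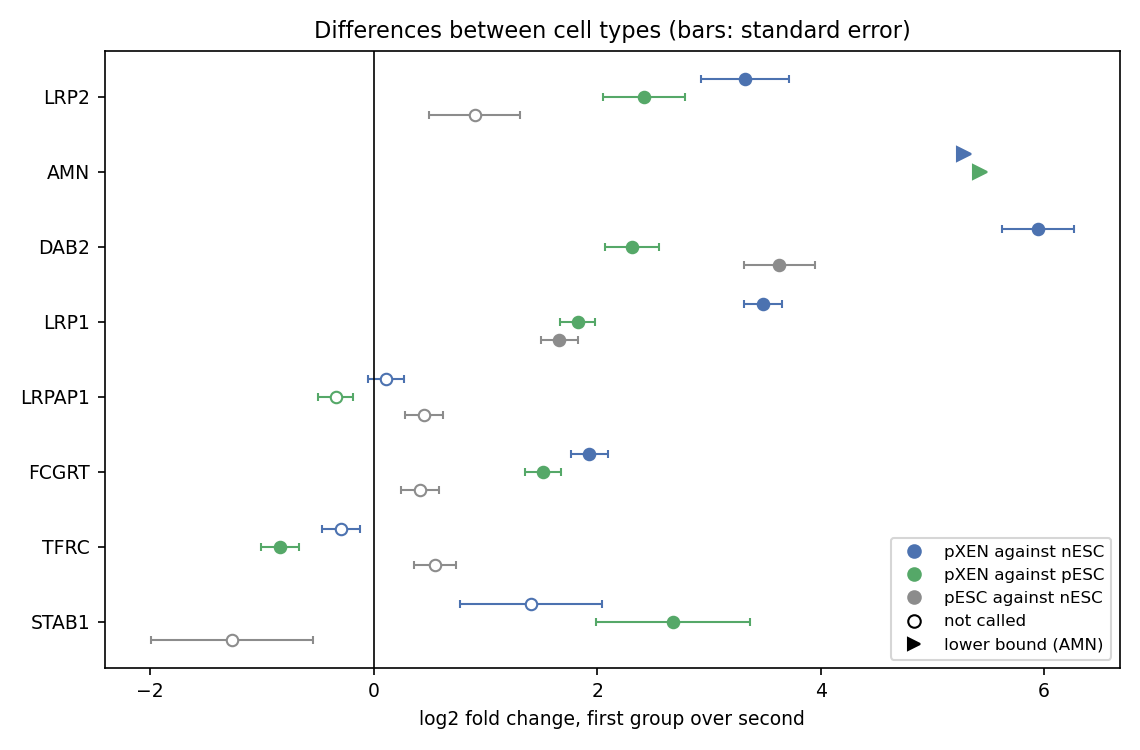
Log2 fold change between groups (horizontal axis) for the tested genes and rows, with bars of 1 standard error. Filled circles were called at an adjusted p below 0.05 and open circles were not, and triangles mark AMN's lower bounds against the floor of 3 counts. LRP2, DAB2, LRP1 and FCGRT lay to the right of 0 in both pXEN comparisons, and TFRC lay to the left.

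By symbol, 5 of the 6 genes found were tested. In pXEN against nESC, 3 of the 5 (AMN, DAB2 and FCGRT) were called higher and 0 lower. Of all genes tested 54.5% were called, 28.3% higher and 26.2% lower. In that comparison 0 genes were lower at an unadjusted p below 0.05 too, and DESeq2 and limma called 0. In pXEN against pESC, 4 of the 5 (those 3 and STAB1) were called higher and TFRC lower, where 48.3% of all genes were called, 23.9% higher and 24.4% lower. In pESC against nESC, DAB2 alone was called higher and 0 genes lower, where 32.2% of all genes were called, 19.0% higher and 13.3% lower. Leaving out 1 line moved the calls over all genes from 5621 to between 2965 (without pESC line 1) and 7566 (without pXEN line 2) in this comparison, and in pXEN against pESC from 8429 to as few as 5553 (without pESC line 2). At an unadjusted p below 0.05, 3 genes were higher and 0 lower in pESC against nESC, where DESeq2 called 2 higher and 0 lower. With calls this common, and with AMN tested only because of the pXEN lines, the counts describe the genes and are no evidence about them as a set. With the 3 rows for LRP1, LRP2 and LRPAP1 added, 5 of 8 were called higher in pXEN against nESC. Without pXEN line 2, 4 of the 5 genes were called higher against nESC and 4 against pESC. AMN, FCGRT, the main LRP1 row, the LRP2 row (log2 fold changes 3.25 and 2.34) and DAB2 (5.78 and 2.15) were all still called higher against both ESC types.

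The order of the levels differed between the cell types. In the pXEN lines the mean FPKM was 105 for LRP1, 84.3 for FCGRT, 57.8 for LRPAP1, 56.6 for the LRP2 row, 39.4 for DAB2, 20.7 for TFRC, 8.73 for AMN and 0.958 for STAB1. LRP1 and FCGRT overlapped in range, as did LRPAP1 with the LRP2 row and that row with DAB2. In the nESC lines LRPAP1 led at 53.3 FPKM, followed by TFRC at 25.2, FCGRT at 22.0, LRP1 at 9.28 and the LRP2 row at 5.62, with TFRC and FCGRT overlapping. In the pESC lines LRPAP1 led at 73.6 FPKM and TFRC followed at 37.3. LRP1 at 29.7 and FCGRT at 29.6 FPKM were not separated there, and the LRP2 row at 10.6 and DAB2 at 7.98 came next.

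Among 7143 genes compared, the named genes whose log2 CPM over the 7 libraries ran closest to the LRP2 row were FRAS1 (Pearson r = 0.997), PIAS3 and SBK1 (both r = 0.994). In all, 255 genes had an r above 0.95, since any gene with a like difference between the groups scores high over 7 points. Of pairs within the 9 genes, DAB2 and the main LRP1 row had an r of 0.978, and AMN and FCGRT one of 0.966. CUBN was not tested and no such profile was made for it.

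The rest of the uptake route was described with 6 lists of related genes, taking the row with most counts where a symbol had several (B2M has 2). Each list's median log2 fold change can be set beside the median over all genes tested, which was 0 for pXEN against nESC and -0.01 for pXEN against pESC. The shares of all genes tested that were called higher and lower with all lines stand beside the counts as "all genes". Leaving out any line other than pXEN line 2 lowered the number called over all genes in every comparison. Leaving out pXEN line 2 raised it. Changes of the list counts with a line left out came with these changes over all genes.

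Of 13 other LDL receptor family members tested, 6 were higher and 4 lower in pXEN than in nESC (all genes 28.3% and 26.2%, list median 0.51), and 6 were higher and 3 lower than in pESC (all genes 23.9% and 24.4%, list median 0.39). LRP5, a WNT co-receptor, was higher in pXEN than in nESC by 4.96 on the log2 scale (adjusted p = 4.37e-06). LRP11 went the other way, with 0, 3 and 0 counts in the pXEN lines against 1241 and 1235 in the nESC lines and 704 and 735 in the pESC lines (adjusted p = 1.29e-06 and 3.55e-06). LRP11 passed the low-count filter through the ESC lines alone. A difference from pXEN was thus built into its being tested, and the list's counts and medians are a description.

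Of 21 clathrin coat and adaptor genes tested, 12 were higher and 1 lower in pXEN than in nESC (all genes 28.3% and 26.2%, list median 0.64), and 12 were higher and 1 lower than in pESC (all genes 23.9% and 24.4%, list median 0.58). Without pESC line 1, 7 were higher than in pESC, and without pXEN line 2, 2 were lower than in nESC. GULP1, an adaptor that binds LRP1, was higher by 3.95 than in nESC (adjusted p = 1.66e-05), MYO6, the motor of clathrin-coated vesicles, by 1.81 (adjusted p = 0.00212) and the adaptor NUMB by 1.54 (adjusted p = 9.85e-05). The lower gene was in both comparisons AP2A1, a large subunit of the AP-2 adaptor, by -0.56 (adjusted p = 0.00211) and -0.52 (adjusted p = 0.00382).

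Of 20 genes of early and recycling endosomes, 12 were higher and 4 lower in pXEN than in nESC (all genes 28.3% and 26.2%, list median 0.56), against 5 higher and 4 lower than in pESC (all genes 23.9% and 24.4%, list median 0.15). Those higher than in nESC numbered 7 without nESC line 2. Those higher than in pESC numbered 3 when pXEN line 1, pXEN line 3 or 1 of the pESC lines was left out, and those lower numbered 7 without pXEN line 2. CLCN5, the endosomal chloride and proton exchanger needed for megalin-dependent uptake in the kidney, had the largest change of the list in pXEN against nESC. It stood at 50.6 ± 8.21 FPKM (SD, n = 3) in pXEN, 2.11 ± 0.202 (SD, n = 2) in nESC and 7.09 ± 0.0940 (SD, n = 2) in pESC, and was higher by 4.57 (adjusted p = 1.89e-06) and 2.84 (adjusted p = 1.30e-05) on the log2 scale. RAB38 was higher in pXEN than in nESC by 2.00 but lower than in pESC by -2.64, and RAB4A, a GTPase of fast recycling, was higher than in nESC by 1.72. VPS29, a retromer subunit, was the list's 1 gene called lower in pESC against nESC (-0.87, adjusted p = 0.00125).

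Of 11 other uptake receptors tested, 6 were higher and 2 lower in pXEN than in nESC (all genes 28.3% and 26.2%, list median 1.47, or 1.32 with genes at 0 counts in a group set at their bound), and 4 were higher and 5 lower than in pESC (all genes 23.9% and 24.4%, list median 0.63). Without pXEN line 2, 4 were lower than in nESC. TFR2, a relative of TFRC that senses transferrin-bound iron, had 107, 88 and 118 counts in the pXEN lines, 0 and 2 in the nESC lines and 30 and 22 in the pESC lines. It was called higher in pXEN in both comparisons (adjusted p = 0.000110 and 0.00410), whereas TFRC was not in either. SCARA5, a ferritin receptor, had 3, 6 and 7 counts in the pXEN lines, 0 in the nESC lines and 298 and 412 in the pESC lines. Against the floor of 3 counts per library, it was at least 1.93-fold higher in pXEN than in nESC, at counts close to that floor. SCARA5 and STRA6 passed the low-count filter through the pESC lines alone, and ENPEP through the pXEN lines alone, so the list's counts and medians are a description. PLAUR, the urokinase receptor, was higher in pXEN than in nESC by 4.64 (adjusted p = 0.000387). SCARB2, a lysosomal receptor, was higher in pXEN than in nESC (1.32) and pESC (2.09) and the 1 gene of the list lower in pESC than in nESC (-0.77, adjusted p = 0.00535).

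Of 7 genes of cellular iron handling, 5 were higher and 0 lower in pXEN than in nESC (all genes 28.3% and 26.2%, list median 0.84), and 5 were higher and 2 lower than in pESC (all genes 23.9% and 24.4%, list median 0.78). Without pESC line 1, 3 were higher than in pESC. The number lower than in pESC was 0 when 1 of the pESC lines was left out and 1 when pXEN line 1, pXEN line 3 or 1 of the nESC lines was. Besides TFR2, they included the ferrireductase STEAP3, at 142, 133 and 179 counts in the pXEN lines and 11 to 20 counts in the ESC lines (higher in pXEN by 3.33 and 3.87 on the log2 scale, adjusted p = 0.000100 and 8.34e-05). SLC40A1, the iron exporter ferroportin, which passed the filter through the pXEN lines alone, had 23, 44 and 29 counts in the pXEN lines, 0 and 2 in the nESC lines and 9 and 4 in the pESC lines. ACO1, which binds iron-responsive elements in TFRC messenger RNA, was the 1 gene called lower in pESC against nESC (-0.46, adjusted p = 0.0133).

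Of 14 ligands and partners of these receptors tested, 10 were higher and 1 lower in pXEN than in nESC (all genes 28.3% and 26.2%, list median 3.62), and 8 were higher and 3 lower than in pESC (all genes 23.9% and 24.4%, list median 2.36). Those lower than in nESC numbered 2 without pXEN line 2 and 0 without nESC line 1, and those lower than in pESC 1 without pESC line 1. Transferrin (TF), the ligand of TFRC, had 5371, 10017 and 5836 counts in the pXEN lines, 0 in both nESC lines and 6 and 10 in the pESC lines, at least 2568-fold higher in pXEN than in nESC. AMBP, the precursor of the megalin ligand alpha-1 microglobulin, had 704, 1365 and 999 counts in the pXEN lines and 0 in every ESC line, at least 371-fold higher than in nESC and at least 410-fold higher than in pESC. APOE, a ligand of LRP1, had 93253 to 108255 counts in the pXEN lines and 14 to 923 in the ESC lines (higher in pXEN by 12.84 and 7.30 on the log2 scale, adjusted p = 1.82e-07 and 8.88e-07). The 1 gene lower against nESC was B2M. TF, AMBP, APOB and TTR passed the low-count filter through the pXEN libraries alone, as AMN did, so their differences were built into their being tested and the list's counts and medians are a description.

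In pESC against nESC, the median over all genes tested was 0.01, and 19.0% of all genes were called higher and 13.3% lower. The LDL receptor family had 3 calls in each direction (median 0.22). The numbers called higher and lower were 7 and 2 for clathrin coat and adaptor genes (median 0.13), 8 and 1 for endosome genes (median 0.37) and 6 and 1 for other uptake receptors (median 1.47). They were 6 and 0 for ligands and partners (median 0.73, or 0.52 with genes at 0 counts set at their bound) and 3 and 1 for iron handling (median 0.50). SCARA5, STRA6 and LCN2 were tested through the pESC lines alone, where they were high, so these counts and medians too are a description. Without 1 of the ESC lines, the numbers called higher were as low as 1 for the LDL receptor family, 4 for clathrin coat and adaptor genes, 4 for endosome genes, 2 for ligands and partners and 1 for iron handling. The numbers called lower were as low as 1 for the LDL receptor family and 0 for clathrin coat and adaptor genes and for iron handling. Without pXEN line 2 they were 4 for clathrin coat and adaptor genes, 3 for other uptake receptors and 1 for ligands and partners. For both counts of 0 lower with all lines, ligands here and iron handling in pXEN against nESC, 0 genes were lower at an unadjusted p below 0.05 or called lower by DESeq2 or limma.

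**Figure D5:**
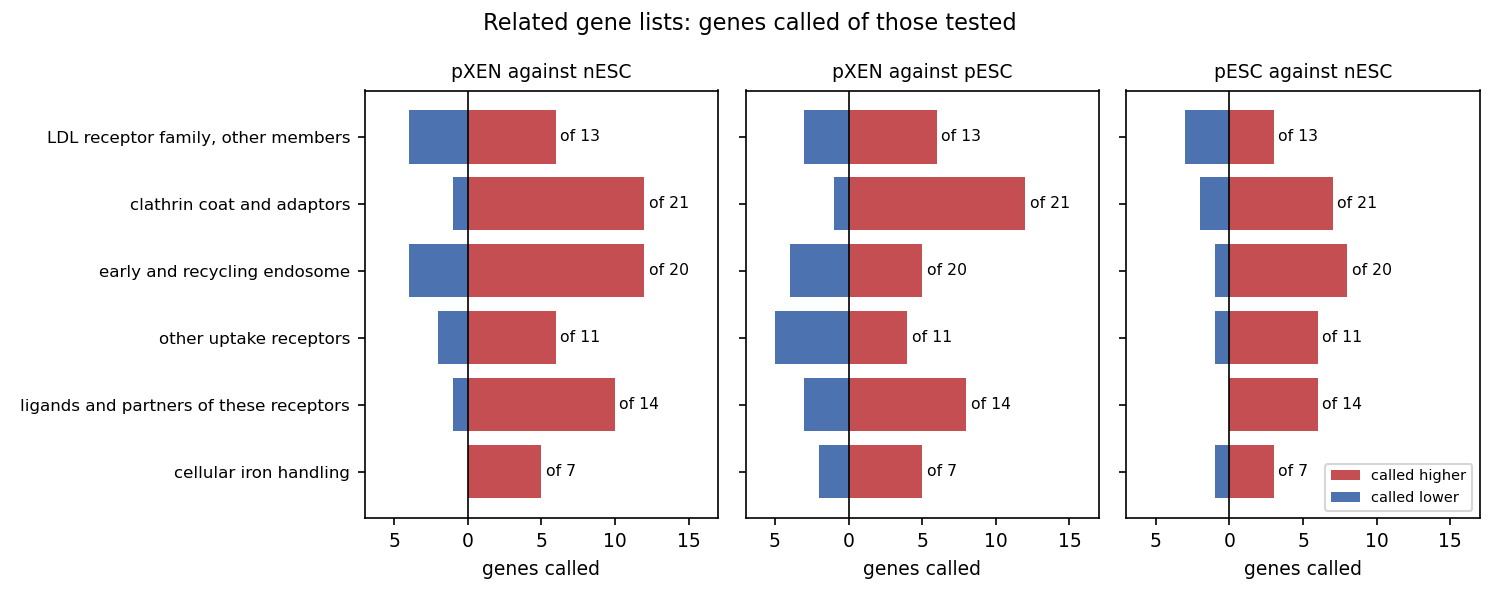
Genes called higher (red, to the right of 0) and lower (blue, to the left) at an adjusted p below 0.05 in each of 6 related lists and 3 comparisons, with the number tested beside each bar. Over all genes tested, 28.3%, 23.9% and 19.0% were called higher in the 3 comparisons from left to right, and 26.2%, 24.4% and 13.3% lower. Against pESC, 5 of 20 endosome genes were called higher and 4 lower, and 12 of 21 clathrin coat and adaptor genes higher and 1 lower.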

How the data were processed

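The authors deposited raw read counts per gene and FPKM for 7 libraries of rRNA-depleted, directional RNA. Per the labels, reads were aligned with HISAT2 2.0.5 to Sscrofa10.2, counted with featureCounts 1.5.0-p3 and tested with edgeR 3.22.5. The deposited FPKM is the count over gene length and a library size set by the authors, which is not the sum of the counts. Reads shared by overlapping or split gene models were assigned by that counting. Samples were grouped by their labels. The counts were tested here with edgeR 4.0.16 (R 4.3.3) by its quasi-likelihood test after TMM and filterByExpr, with 7 libraries in 1 fit and Benjamini-Hochberg adjustment over 17447 genes. Calls were made at an adjusted p below 0.05, and the biological coefficient of variation was 0.223. No source gives a batch or date. Each line is 1 replicate, so p-values measure the spread between these lines. The script was tested on simulated counts. Alternatives were DESeq2 1.42.0, limma 3.58.1 on log2(FPKM + 1) and log2(FPKM + 0.1), other scalings and filters, 2-group fits, a replicate block and leaving out each library. The genes and lists were chosen with earlier results of these data known. From the related lists, the text names up to 3 called genes per list with the largest change in pXEN against nESC, and each gene that was the only call of its direction. 1 gene that this rule names is not reported here. Sequences were not used here.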

Additional observations from a re-analysis of the deposited data

How the results depend on the processing

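Over the alternatives run, the calls of AMN, DAB2, FCGRT, the main LRP1 row and the LRP2 row in pXEN against either ESC type kept their direction and stayed past the threshold wherever the gene was tested. AMN was not tested when 10 counts were asked in every library. LRPAP1 in pXEN against nESC changed sign without being called, at -0.0614 with upper-quartile scaling and between -0.0519 and 0.286 when 1 library was left out (-0.0210 without pXEN line 2, -0.0519 without nESC line 2). Upper-quartile scaling changed the split of all calls from 4937 higher and 4577 lower to 4348 and 5621 in pXEN against nESC, with the median of all genes shifted by -0.16. Genes of the 9 called higher in pXEN against nESC numbered 3, and 5 with the LRP1, LRP2 and LRPAP1 rows added, an alternative chosen after seeing the data. Those called lower numbered 0, and 1 (TFRC) with scaling within chromosomes. Leaving out 1 library gave 0 to 1. In pESC against nESC 1 was called higher, and 2 with DESeq2, with no filter on low counts, with only the 2 groups compared, with a replicate block (TFRC in each) and with the added rows. Leaving out 1 library gave 1 to 2. All genes called numbered 5553 to 9566 in pXEN against pESC and 2965 to 7566 in pESC against nESC when 1 library was left out. The replicate numbers were taken only as names of the lines. Correlations of same-numbered lines, as deviations from their group means, were -0.00842 to 0.0340. In a group of 2 lines such deviations mirror each other, so these values cannot show whether same-numbered lines share an origin. The replicate block gave 8274, 6993 and 5041 calls in place of 9514, 8429 and 5621. It ended the STAB1 call against pESC (log2 fold change 1.99, adjusted p = 0.0505). The cause of these changes was not tested. Of the recomputed counts of list genes called, 542 stayed within 1.5 times and 70 did not, most of them when 1 library was left out (12 without pESC line 1, 9 without pESC line 2). Depth limits the values of CUBN, which had 6 counts in all, and of STAB1 in the lines with few counts.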
